A study of Mus musculus with 8 samples.

Results

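Lysosome genes encode the acid hydrolases, membrane proteins and regulators of the organelle in which cells break down what they engulf. The 39 members examined here were a given list of such genes (11 proteases, 9 glycosidases and sulfatases, 9 genes of lipid handling, 8 membrane proteins and 2 regulators), and all 39 were found among 21887 protein-coding genes of the mouse annotation. The peaks assigned to a member were those within 1 kb of either annotated end of the gene, called gene-end peaks, and those in its locus, which extends 20 kb beyond the gene at both ends. The assay was ATAC-seq, in which a transposase cuts open DNA and inserts adapters, with the Vazyme Hyperactive ATAC kit. There were 4 libraries of hippocampal microglia from FGR mice and 4 from Ctrl mice, all aged 3 weeks and all heterozygous for Tmem119-tdTomato, a red reporter at a microglial gene. FGR stands for growth restriction in the womb, and the labels give neither how it was brought about nor what was done to Ctrl mice. They also do not say whether libraries came from separate animals, how many animals or which sex stand behind each, or how the cells were isolated, so that p-values measure only the spread between these libraries.

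In the lysosome, cathepsins and other proteases cut proteins, glycosidases and sulfatases strip sugars from glycoproteins, glycolipids and glycosaminoglycans, and lipid hydrolases with their activators and carriers dispose of sphingolipids and cholesterol esters. Microglia, the resident macrophages of the brain, clear dying cells and synaptic material by this route, and inherited loss of many of these enzymes causes storage disease with brain involvement. The transcription factor TFEB binds the letters CACGTG within a longer pattern known as the CLEAR element, found in the promoters of many lysosome genes.

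The stretches just before listed start sites are shown for the 5 members whose promoter holds TCACGTGA and for Lamp1, whose promoter holds the most copies of CACGTG, because CACGTG is the core of the site that TFEB is known to bind. They come from RefSeq promoters on GRCm38.p6, the assembly with mm10 coordinates, and are written 5′ to 3′ on the strand of the gene, with CACGTG in capitals. Each stretch ends at the base before the start.
Ctsa, chr2:164833673-164833772, + strand, protective protein with carboxypeptidase activity: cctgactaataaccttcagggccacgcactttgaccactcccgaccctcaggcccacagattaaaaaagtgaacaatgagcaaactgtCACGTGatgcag
Ctsd, chr7:142387828-142387947, − strand, aspartic protease: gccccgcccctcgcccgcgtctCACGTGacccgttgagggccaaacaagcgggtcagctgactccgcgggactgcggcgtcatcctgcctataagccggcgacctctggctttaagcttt
Gla, chrX:134601006-134601255, − strand, alpha-galactosidase: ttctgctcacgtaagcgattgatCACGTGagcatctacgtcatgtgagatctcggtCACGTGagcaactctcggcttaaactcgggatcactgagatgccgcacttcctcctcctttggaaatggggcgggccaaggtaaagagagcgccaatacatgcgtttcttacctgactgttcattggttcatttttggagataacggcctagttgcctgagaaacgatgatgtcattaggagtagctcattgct
Mcoln1, chr8:3500419-3500518, + strand, lysosomal calcium channel: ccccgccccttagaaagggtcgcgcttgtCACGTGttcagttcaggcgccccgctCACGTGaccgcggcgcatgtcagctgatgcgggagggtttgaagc
Lamp1, chr8:13159061-13159160, + strand, major membrane glycoprotein: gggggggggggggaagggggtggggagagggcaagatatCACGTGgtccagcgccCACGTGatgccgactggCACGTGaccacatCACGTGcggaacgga
Cln3, chr7:126583237-126583406, − strand, membrane protein lost in juvenile Batten disease: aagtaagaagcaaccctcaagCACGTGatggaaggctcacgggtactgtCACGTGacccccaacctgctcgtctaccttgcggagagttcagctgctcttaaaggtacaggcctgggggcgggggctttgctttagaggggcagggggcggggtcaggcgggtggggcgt

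Promoter windows of 250 bases before to 50 bases after a listed start were available for 35 of the 39 members, which have 41 windows between them. CACGTG, which reads the same on both strands, stood in 13 of the 41 member windows (31.7%), beside 7.84% of 21263 windows of all protein-coding genes. The longer TCACGTGA, which contains CACGTG, stood in 5 member windows (12.2%) and in 1.23% of all windows. The full CLEAR element, which extends it by 1 base on each side and reads the same on both strands, stood in 1 member window, that of Cln3 printed above, and in 0.419% of all windows. In a further list of 95 lysosome genes, CACGTG stood in 23.2% of 82 windows. For comparison, GGAAGT, part of the site of PU.1 family factors, was in 34.1% of member windows and 24.8% of all, and GGGCGG, a GC box, in 68.3% and 46.2%, both searched on both strands. Of the 13 member windows with CACGTG, 6 overlapped a peak in all 8 libraries and 3 overlapped none in any library. A peak in all 8 libraries overlapped 51.2% of the 41 member windows and 28.7% of all windows. Among the 1666 windows of all genes with CACGTG, 712 had one. Among the promoters printed, the windows of Ctsd, Gla and Mcoln1 were overlapped in 8 libraries, that of Ctsa in 7, that of Lamp1 in 6 and that of Cln3 in 0. CACGTG was in 28.6% of the 21 member windows with a peak in all 8 libraries and in 42.9% of the 7 with no peak, beside 11.7% of the 6100 windows of all genes with a peak in all 8 libraries.

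Lists were longer on average in FGR libraries (23327 to 29501 peaks) than in Ctrl libraries (10862 to 24195). The ranges overlap, since Ctrl replicate 4 had a longer list than FGR replicate 2. The read depth is unknown, and the labels give no date or batch. The sample records are numbered in separate blocks, replicates 1 and 2 of both groups in one and replicates 3 and 4 in another. What the blocks stand for is not given. Ctrl replicates 1 and 2 stood apart, with the shortest lists and median peak widths of 566 and 522 bp against 353 to 386 bp in the other 6 libraries. Most tests on named genes and the medians of differences below are therefore also given without them. FGR replicates 1 and 3 had 9.01% of their overlapping peaks with the summit at the same base, and FGR replicates 2 and 4 had 7.48%, against 1.73 to 2.13% in the other 13 pairs among those 6 libraries. The 2 Ctrl pairs showed no such identity, at 0.00688% (replicates 1 and 3) and 0.0383% (2 and 4), but held the largest shares of summits 200 bp apart, 1.197% and 0.919%, against 0.399 to 0.749% where Ctrl replicate 1 or 2 was set beside any other of the 6. Replicates 1 and 3, and 2 and 4, were counted as 1 sample in each mean ± SD (n = 2 pairs). Limma was fitted over the 8 libraries, so where the pairs are not separate samples its p-values are too small, and p-values with pairs averaged are given beside the smallest of them. As a check of the label, 5 of 12 microglia markers had a gene-end peak in all 8 libraries, beside 31.9% of all protein-coding genes. With Ctrl replicates 1 and 2 left out, 10 of 12 had one in all 6 remaining libraries, beside 37.9% of all genes. P2ry12 had one in 1 library and Gpr34 in none. Gene-end peaks in all 8 libraries were found at 0 of 6 neuron, 0 of 5 astrocyte, 0 of 5 oligodendrocyte, 0 of 4 endothelial, 0 of 4 border macrophage, 0 of 4 monocyte and neutrophil and 0 of 4 lymphocyte markers. The endothelial gene Flt1 had one in 4 FGR and 1 Ctrl libraries. The oligodendrocyte gene Mbp had one in 2 FGR and 2 Ctrl libraries, and the lymphocyte gene Cd79a in 2 Ctrl libraries. Aldh1l1 (astrocyte), Cdh5 (endothelial) and Mrc1 (border macrophage) each had one in 1 library.

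Most lysosome genes carried an open gene end in every library of both groups. Of the 39 members, 27 had a gene-end peak in every one of the 8 libraries, where the same held for 31.9% of all protein-coding genes, and 3 had one in no library (background 42.2%). In bulk libraries, fewer cells with an open site and less open DNA per cell cannot be told apart. It was called at 34, 33, 35 and 35 members in FGR libraries 1 to 4 and at 33, 29, 34 and 34 in Ctrl libraries 1 to 4. The Ctrl library with 29 was replicate 2, which has the shortest list, and the other Ctrl libraries lay within or next to the range of FGR. In percent of members this was 87.8 ± 0.907 in FGR and 83.3 ± 3.63 in Ctrl (SD, n = 2 pairs), beside 46.7% and 42.7% of all genes. Without Ctrl replicates 1 and 2 the Ctrl mean was 87.2%, and with every list shortened to its 10862 strongest peaks the difference turned round, with FGR lower by 10.3 percentage points (value −10.3). The direction of this difference depended on list length.

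By role, a gene-end peak in all 8 libraries was found at 6 of 11 proteases, 8 of 9 glycosidases and sulfatases, 6 of 9 genes of lipid handling, 5 of 8 membrane proteins and both regulators, Tfeb and Grn. In the further list it was found at 64 of 95 genes, among them 14 of 16 subunits of the V-ATPase, the pump that acidifies the lysosome, and 14 of 16 genes of TFEB relatives and nutrient sensing. Sorting genes had it at 10 of 17, other enzymes at 14 of 25 and other membrane proteins at 12 of 21. At members with a listed start and strand, the peak lay at the start: 25 of 35 had a peak within 1 kb of a start in all 8 libraries, against 34.6% of 17492 genes. Distances were taken in each library over all members with such a peak there, 31 to 33 in FGR and 27 to 32 in Ctrl. The median absolute distance of the strongest peak's summit from the start was 72.0, 101, 84.0 and 79.0 bp in FGR libraries 1 to 4. In Ctrl libraries 1 to 4 it was 143, 156, 63.5 and 70.0 bp, the widest values being those of replicates 1 and 2.

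The number of libraries with a gene-end peak was higher in FGR at 6 members (background 16.5%) and higher in Ctrl at 1, Arsa (background 5.5%). Most of these differed by 1 library, and at Ctsa, Ctsh, Ctsz, Man2b1 and Lamp2 the missing Ctrl library was replicate 2. The exception was Ppt1, which encodes palmitoyl-protein thioesterase, the enzyme lost in infantile neuronal ceroid lipofuscinosis. Its start-side peak, chr4:122836049-122836391, was called in FGR libraries 1, 3 and 4 at within-list percentiles of 50.1, 51.7 and 26.1 and in no Ctrl library. It was the single member with a gene-end peak in 3 or 4 more FGR than Ctrl libraries (background 1.21%), and none had the opposite (background 0.178%). In lists of equal length the Ppt1 peak was called in 0 FGR and 0 Ctrl libraries.

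**Figure D1:**
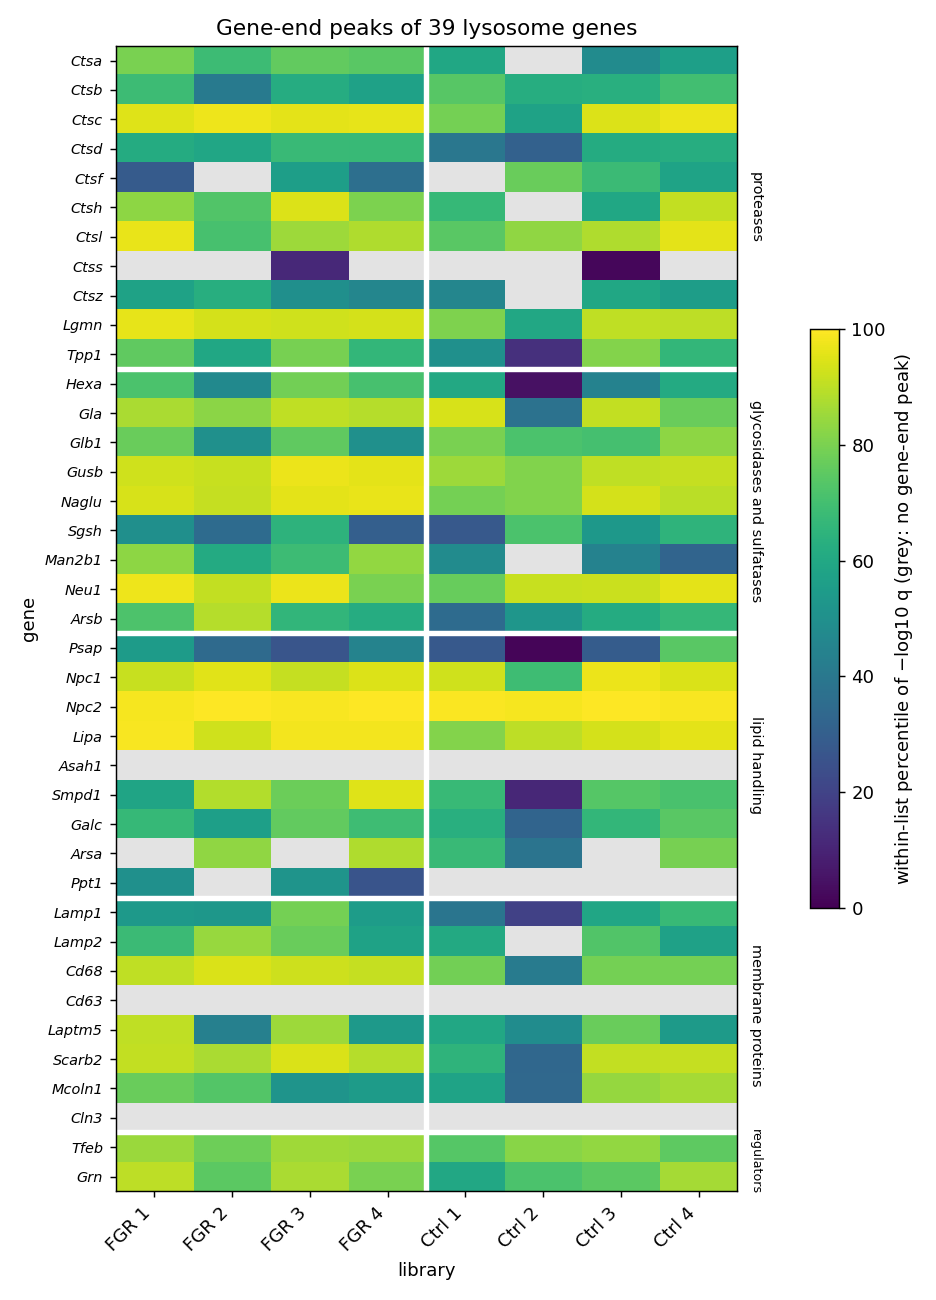
Within-list percentile of −log10 q of the strongest gene-end peak (100 is the strongest peak of a library, grey is no peak) for 39 lysosome genes in rows, grouped by role, and 8 libraries in columns, FGR left of Ctrl. Npc2 lies between 98.5 and 99.9 in every library, 3 rows (Asah1, Cd63, Cln3) are grey throughout, and Ctrl 2 has the most grey cells of the 8 columns.

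The strength of a peak was read as its percentile among the −log10 q values of its own list, since those values cannot be compared between libraries. The median over members was 74.8, close to 71.2 over all genes with a gene-end peak. Over genes with such a peak in all 8 libraries it was 77.7 for members and 80.4 for all genes. The strongest gene end belonged to Npc2, which encodes the soluble carrier that hands cholesterol to NPC1. Its percentiles were 98.8, 99.9, 99.1 and 99.8 in FGR libraries 1 to 4 and 99.3, 98.5, 99.7 and 98.8 in Ctrl libraries 1 to 4. Every library thus had the Npc2 peak among its strongest, and the groups overlap. The neighbouring gene Isca2 shares this peak. The membrane partner Npc1 had 91.4, 95.5, 91.2 and 94.8 in FGR and 92.8, 69.1, 97.2 and 94.2 in Ctrl, where replicate 2 was the low one. Lipa, the acid lipase that frees cholesterol from its esters, had 99.1, 92.7, 98.3 and 98.2 in FGR and 81.4, 90.1, 93.5 and 95.7 in Ctrl. The lowest FGR value lay below the 2 highest Ctrl values, so the groups overlap. Ctsc, the dipeptidyl peptidase that activates granule serine proteases, had 95.0, 97.6, 95.8 and 96.4 in FGR and 78.9, 57.7, 94.6 and 97.0 in Ctrl. Naglu, which removes N-acetylglucosamine from heparan sulfate, had 93.9, 91.2, 95.8 and 96.6 in FGR and 79.3, 80.9, 93.5 and 89.8 in Ctrl. At both genes the low values were those of Ctrl replicates 1 and 2.

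Among the weakest gene ends was that of Ctss, which encodes cathepsin S, the protease that processes the class II invariant chain. Ctss had a gene-end peak in 1 FGR library (replicate 3, percentile 11.4) and 1 Ctrl library (replicate 3, percentile 1.64). A second region, chr3:95529729-95530287, centred 3221 bp downstream of the Ctss start, was called in all 8 libraries at percentiles of 77.5, 85.9, 70.9 and 87.6 in FGR and 50.6, 19.8, 92.5 and 90.7 in Ctrl. The region found in every library at Ctss lay inside the gene and not at its listed start. Psap, the precursor of the saposins that help hydrolases act on sphingolipids, had 54.9, 34.5, 26.4 and 44.5 in FGR and 27.9, 1.21, 29.1 and 74.3 in Ctrl. Sgsh, a sulfatase of heparan sulfate, had 49.8, 35.0, 64.8 and 30.2 in FGR and 28.0, 71.5, 53.4 and 65.0 in Ctrl. Lamp1, whose promoter holds 4 copies of CACGTG, had 53.7, 52.8, 79.2 and 55.1 in FGR and 38.99, 19.2, 59.0 and 67.4 in Ctrl. At these 3 genes the groups overlapped, and the median over libraries was 31.8 for Psap, 51.6 for Sgsh and 54.4 for Lamp1.

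The other proteases lay in between, and since a percentile also moves with the length of the list, the following values are descriptions from which no difference is read. Ctsl, the endopeptidase cathepsin L, had percentiles of 71.0 to 96.6 in FGR and 74.4 to 95.7 in Ctrl, and Ctsd, the aspartic protease cathepsin D, 59.4 to 67.8 in FGR and 31.0 to 62.3 in Ctrl. Ctsh, an aminopeptidase, had 72.7 to 94.6 in FGR and 59.4 to 90.6 in the 3 Ctrl libraries with a peak. Ctsz, a carboxypeptidase, had 45.7 to 62.7 in FGR and 45.7 to 59.6 in 3 Ctrl libraries, from 3 different regions. Ctsf, a cysteine protease, lacked a peak in FGR replicate 2 and Ctrl replicate 1 and had 28.7 to 56.2 in FGR and 57.9 to 77.1 in Ctrl. Ctsa had 68.7 to 80.0 in FGR and 48.4 to 59.5 in 3 Ctrl libraries, its peak is shared with Neurl2, and with a peak in 7 libraries it was not ranked.

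Among glycosidases and sulfatases, Neu1, the sialidase, had 79.8 to 97.6 in FGR and 76.8 to 95.9 in Ctrl, and Gla had 82.5 to 90.4 in FGR and 37.8 to 94.1 in Ctrl. Arsb, a sulfatase of dermatan sulfate, had 62.0 to 88.8 in FGR and 35.0 to 66.4 in Ctrl. Man2b1, an alpha-mannosidase, had 61.0 to 83.7 in FGR and 32.2 to 48.2 in the 3 Ctrl libraries with a peak, and was not ranked. Its peak is shared with Wdr83os, that of Neu1 with Slc44a4 and that of Gla with Hnrnph2. In lipid handling, Smpd1, the acid sphingomyelinase, had 58.6 to 95.2 in FGR and 11.2 to 73.6 in Ctrl, and Galc, the galactosylceramidase lost in Krabbe disease, 56.4 to 75.9 in FGR and 32.1 to 74.3 in Ctrl. Of the membrane proteins, Scarb2, the receptor that carries glucocerebrosidase to the lysosome, had 87.4 to 94.2 in FGR and 33.4 to 91.2 in Ctrl, Mcoln1 51.9 to 77.1 in FGR and 33.8 to 86.6 in Ctrl, and Lamp2 57.7 to 84.4 in FGR and 57.3 to 72.9 in 3 Ctrl libraries. The start region of Tfeb, the regulator itself, chr17:47736819-47738501, had 60.6 to 85.6 in FGR and 54.6 to 82.3 in Ctrl, and a region 855 bp beyond its far end, chr17:47793271-47793925, had 76.8 to 84.9 in FGR and 73.5 to 83.6 in 3 Ctrl libraries. The Tfeb gene-end rank takes whichever was stronger, so it compares different sites. This holds for 4 members in all, Ctsz, Tpp1, Laptm5 and Tfeb.

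The 3 members without a gene-end peak differed in kind. Cln3 had no peak within 1 kb of either listed start in any library. Asah1, the acid ceramidase, had a region inside its annotated span, chr8:41373842-41375255, called in all 8 libraries. Cd63, a tetraspanin of late endosomes and lysosomes, had a region centred 402 bp downstream of a listed start that lies inside its annotated span, chr10:128909427-128910069, also called in all 8. The gene-end rule missed both because it looks only at the outermost annotated ends. Likewise the Arsa region chr15:89475672-89476586, centred 1296 bp downstream of its start, was called in all 8 libraries but crossed the 1 kb limit in 2 FGR and 3 Ctrl libraries only.

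To compare strength between groups on lists of equal content, the 27 members with a gene-end peak in all 8 libraries were ranked with the other genes of that kind, 6975 in all, from 0 for the weakest to 100 for the strongest, and fitted with limma. No member and no other gene passed the Benjamini-Hochberg adjusted p of 0.05 in either direction (background 0% higher and 0% lower). At an unadjusted p under 0.05 there were 4 members with a higher rank in FGR (background 6.85%) and 2 with a lower one (background 5.92%). The median difference, FGR minus Ctrl, was 6.80 rank points over the members and −0.10 over all genes, and 18 of 27 members were higher, where 49.3% of all genes were. Without Ctrl replicates 1 and 2 the member median was 3.78, in replicates 3 and 4 only 2.92, and ranked by deposited fold 2.81. The unadjusted counts were 3 higher and 1 lower of 32 members without Ctrl replicates 1 and 2 (449 and 398 of 8299 genes). They were 3 and 0 of 27 with pairs averaged (310 and 246 of 6975 genes). Ranked by fold they were 1 and 2 of 27 (466 and 407 of 6975 genes). Of the further lysosome genes, 64 of 95 were ranked, 0 passed in either direction, and 7 higher and 3 lower had an unadjusted p under 0.05.

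The largest of these differences was at Cd68, the macrophage membrane protein used as a marker of lysosome content. Its rank was 68.6, 81.8, 72.6 and 72.1 in FGR libraries 1 to 4 and 55.1, 25.2, 46.4 and 38.9 in Ctrl libraries 1 to 4. Every FGR library ranked above every Ctrl library. The difference was 32.4 ± 10.5 rank points (limma estimate ± SE, adjusted p = 0.228, or 0.602 with pairs averaged), and 27.3 without Ctrl replicates 1 and 2 (limma, adjusted p = 0.349). The peak is shared with the end of Eif4a1, a translation factor gene, so it cannot be assigned to Cd68 alone. Lgmn, the asparaginyl endopeptidase that matures cathepsins, ranked at 86.6, 80.4, 73.5 and 78.7 in FGR and 58.6, 44.2, 71.6 and 67.8 in Ctrl, again without overlap. Its difference was 19.2 ± 8.14 (limma, adjusted p = 0.323) and was 8.55 without Ctrl replicates 1 and 2. Gusb, beta-glucuronidase, was the third member without overlap, with ranks of 75.2 to 87.6 in FGR and 67.5 to 71.6 in Ctrl. Its difference was 10.9 ± 6.22 (limma, adjusted p = 0.472). Such separation above Ctrl was found at 3 of 27 members (background 4.01%) and below Ctrl at 0 (background 3.14%). At Lipa the difference was 12.8 ± 5.65 (limma, adjusted p = 0.349), and 6.22 without Ctrl replicates 1 and 2.

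On the lower side, Glb1, beta-galactosidase, ranked at 36.8, 12.5, 32.0 and 10.4 in FGR and 57.5, 58.3, 31.6 and 47.9 in Ctrl. Ctrl replicate 3 lay within the FGR range, and the difference was −25.9 ± 10.6 (limma, adjusted p = 0.313) with all libraries and −18.0 without Ctrl replicates 1 and 2 (limma, adjusted p = 0.651). Ctsb, cathepsin B, ranked at 22.2, 7.17, 13.2 and 16.01 in FGR and 47.1, 46.7, 22.0 and 21.3 in Ctrl. The 2 high values were Ctrl replicates 1 and 2; the difference was −19.6 ± 8.70 (limma, adjusted p = 0.354) with them and −9.38 without them. Sgsh differed by −15.2 ± 8.95 (limma, adjusted p = 0.483), with Ctrl replicate 2 at 58.0 and the other Ctrl libraries at 5.41 to 15.6, against 2.72 to 16.3 in FGR. It was −5.31 without Ctrl replicate 2 and −9.77 without Ctrl replicates 1 and 2. The Glb1 peak is shared with Tmppe and the Sgsh peak with Slc26a11.

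**Figure D2:**
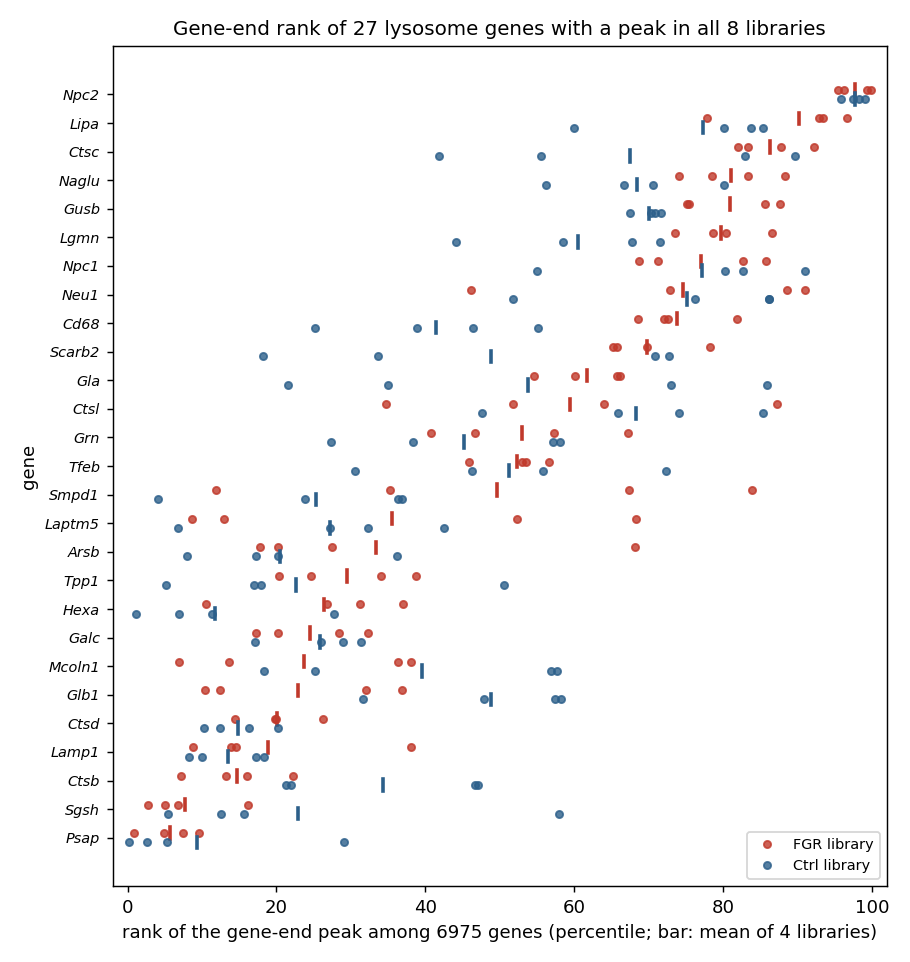
Rank of the gene-end peak among 6975 genes (x axis, percentile) for the 27 lysosome genes with such a peak in all 8 libraries (rows), with FGR libraries in red above Ctrl libraries in blue and bars at the means of 4 libraries. Cd68, Lgmn and Gusb are the rows in which every red point lies right of every blue point, and at Glb1, Ctsb and Sgsh the red mean lies left of the blue one.

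The gene-end rule leaves out open sites inside genes, so the 8856 regions called in all 8 libraries were also ranked among themselves, a test added after the percentiles of Cd63 and Asah1 had been seen. Of these, 61 lay in member loci. No region passed an adjusted p of 0.05 in limma (background 0% higher and 0% lower), 10 in member loci were higher in FGR at an unadjusted p under 0.05 (background 8.48%) and 2 were lower (background 7.29%). Every FGR library ranked above every Ctrl library at 6 of the 61 (background 5.16%), and below at 0 (background 4.01%). Among these 6, the regions of Cd68, Lgmn and Gusb hold the gene-end peaks already ranked above. The region and gene-end rankings thus share peaks and are not separate evidence. The median difference was 3.93 rank points over the 61 and −0.31 over all regions. Without Ctrl replicates 1 and 2 it was 2.93 over the 61, with 7 higher and 2 lower at an unadjusted p under 0.05 (562 and 501 of all 8856 regions), and ranked by deposited fold it was 1.44. The smallest p in member loci belonged to the region at the inner start of Cd63. Its rank was 40.9, 57.7, 26.1 and 31.4 in FGR libraries 1 to 4 and 4.46, 6.95, 2.44 and 3.34 in Ctrl libraries 1 to 4. In Ctrl it was among the weakest of the regions found everywhere, and in FGR it was in the lower and middle part of the range, with no overlap. The difference was 34.7 ± 8.11 rank points (limma, adjusted p = 0.097) and 36.1 without Ctrl replicates 1 and 2 (limma, adjusted p = 0.236). The region inside Asah1 ranked at 95.7, 97.2, 90.4 and 95.5 in FGR and 72.3, 60.7, 49.2 and 88.6 in Ctrl. Here too the groups did not overlap, and the difference was 27.02 ± 6.66 (limma, adjusted p = 0.105). A region upstream of Ctsd, chr7:142403504-142404147, centred at −15998 bp from its start, ranked at 70.1, 75.7, 54.3 and 53.1 in FGR and 17.0, 15.97, 41.2 and 10.9 in Ctrl, a difference of 42.0 ± 11.2 (limma, adjusted p = 0.117). These 3 regions were chosen after their values were seen, and with pairs averaged the adjusted p was 0.447 for each (limma). At a −log10 q of at least 5 the Cd63 region was called in 4 FGR libraries and 1 Ctrl library, and the Asah1 region in all 4 of each. Without Ctrl replicates 1 and 2 the difference at Asah1 was 25.8 (limma, adjusted p = 0.240) and at Ctsd 37.3 (limma, adjusted p = 0.336). With peaks ranked by deposited fold it was 26.4 at Cd63 and 21.2 at Ctsd.

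Counted over whole loci, more peaks were called around lysosome genes in FGR libraries, and the FGR lists, longer on average, go with this. The 39 loci held 139, 138, 146 and 143 peaks in FGR libraries 1 to 4 and 101, 70, 133 and 121 in Ctrl libraries 1 to 4. Every FGR library was above every Ctrl library. Per 10000 peaks of the library the order was not kept: FGR libraries had 51.1, 59.2, 49.5 and 54.5 and Ctrl libraries 62.7, 64.4, 58.6 and 50.01. The means were 53.6 ± 4.62 in FGR and 58.9 ± 2.41 in Ctrl (SD, n = 2 pairs), and 54.3 in Ctrl without replicates 1 and 2. In lists of equal length they were 66.3 ± 2.60 and 64.9 ± 2.60, so that the direction depends on the scaling.

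The extra FGR peaks lay mostly away from gene ends, in member loci as over all peaks. In mean peaks per library this was 24.8 of 35.3 extra peaks in member loci and 6853 of 8102.5 over all peaks. Peaks within 1 kb of a member's end numbered 46, 44, 42 and 46 in FGR and 38, 32, 45 and 43 in Ctrl, and the groups overlap. Peaks in member loci away from every gene end numbered 67, 64, 78 and 67 in FGR and 43, 19, 62 and 53 in Ctrl, with every FGR library above every Ctrl library. They made up 48.7 ± 2.97% of member-locus peaks in FGR and 40.0 ± 6.45% in Ctrl (SD, n = 2 pairs). The libraries overlapped, at 46.4 to 53.4% in FGR and 27.1 to 46.6% in Ctrl. The same direction was seen over all peaks, of which 61.6 ± 2.31% in FGR and 49.5 ± 3.42% in Ctrl lay away from gene ends. Without Ctrl replicates 1 and 2 the Ctrl means were 45.2% in member loci and 56.7% over all peaks. In lists of equal length the counts in member loci were 24 to 32 in FGR and 17 to 27 in Ctrl, and overlapped. List length and its part in these counts cannot be told apart from the groups here.

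**Figure D3:**
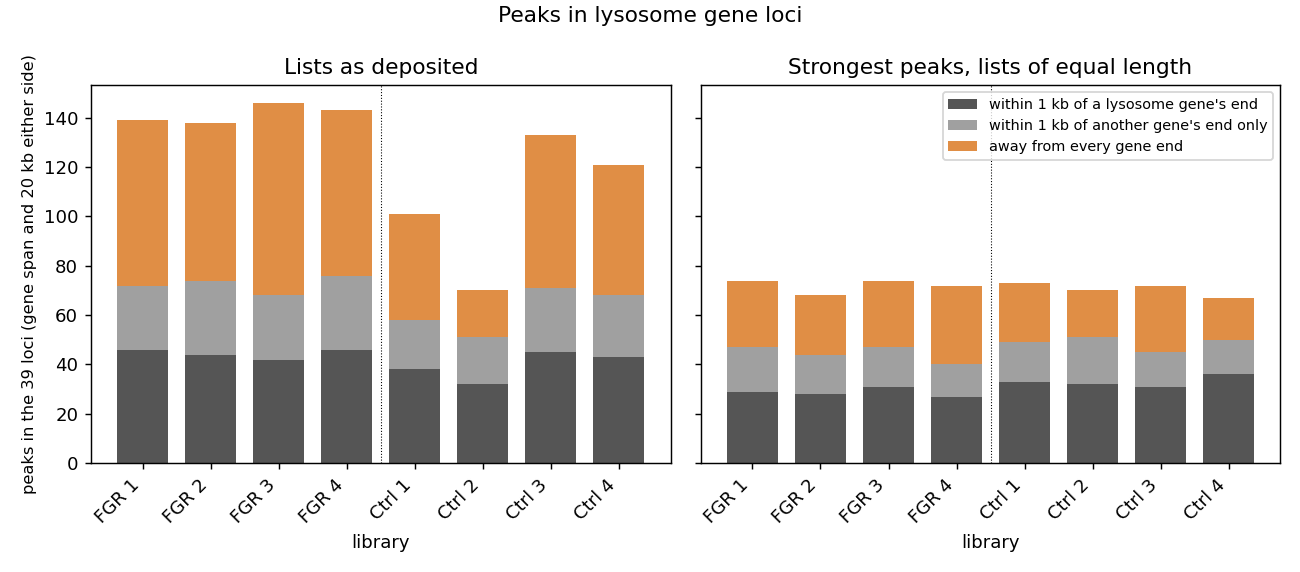
Number of peaks in the 39 lysosome gene loci (y axis) in each library, FGR left of Ctrl, stacked by position: at an end of a lysosome gene, at another gene's end only, or away from every gene end. With lists as deposited (left) the peaks away from gene ends number 64 to 78 in FGR and 19 to 62 in Ctrl, and with lists of equal length (right) 24 to 32 and 17 to 27.

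Locus by locus, limma was fitted to log2 of (peaks + 0.5) per 10000 peaks over the 8037 loci that averaged 2 or more peaks per library, 30 of them members. No member passed the adjusted p of 0.05, and 1 locus of all did (background 0.0124% higher and 0% lower). At an unadjusted p under 0.05, 3 members had more peaks in FGR (background 2.6%) and 5 fewer (background 15.6%). Of the 3, Ppt1 averaged under 2 peaks in Ctrl and passed the filter only through its FGR libraries. The division by list length shifts all loci: the median log2 difference was −0.28 over all loci and −0.22 over members, 9 of which were above 0 and 21 below, where 22.5% of all loci were above 0. Without Ctrl replicates 1 and 2 the median was 0.04 over members and −0.12 over all loci, and 3 members were higher and 3 lower of 32 at an unadjusted p under 0.05 (269 and 505 of 8971 loci). In the further list, 64 of 95 loci were tested, 0 passed in either direction, and 0 higher and 10 lower had an unadjusted p under 0.05.

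On the side of more peaks in FGR, the Npc2 locus held 5, 4, 6 and 5 peaks in FGR libraries 1 to 4 and 1, 1, 3 and 3 in Ctrl libraries 1 to 4. The groups did not overlap before or after the division by list length, and the log2 difference was 0.66 ± 0.25 (limma, adjusted p = 0.201). It was 0.46 without Ctrl replicates 1 and 2 (limma, adjusted p = 0.547) and 0.27 with a 5 kb flank. The Laptm5 locus, of a lysosomal membrane protein of blood and microglial cells, held 5, 6, 6 and 5 peaks in FGR and 2, 1, 3 and 4 in Ctrl. It too did not overlap on either scale, with a log2 difference of 0.52 ± 0.24 (limma, adjusted p = 0.237). It was 0.42 without Ctrl replicates 1 and 2 (limma, adjusted p = 0.620), 0.02 with a 5 kb flank and 0.18 at a −log10 q of at least 5. At Ppt1 there were 4, 3, 5 and 4 peaks in FGR and 2, 0, 3 and 1 in Ctrl, a log2 difference of 0.88 ± 0.33 (limma, adjusted p = 0.203). Since this locus entered the test through the group where it is high, its difference is a description only. FGR replicate 2 and Ctrl replicate 3 were equal at 3 peaks. The difference was 0.56 without Ctrl replicate 2 (limma, adjusted p = 0.395), 0.78 without Ctrl replicates 1 and 2 and 0.42 with a 50 kb flank. Npc1, with 4, 3, 3 and 3 peaks in FGR and 2, 1, 2 and 2 in Ctrl, was separated in the plain counts only, and its log2 difference was 0.17 ± 0.27 (limma, adjusted p = 0.703). Plain counts were separated this way at 3 of 39 members, Npc1, Npc2 and Laptm5 (background 2.23%), and the opposite at 0 of 39 (background 0.0183%). Counts per 10000 were separated above Ctrl at 2 of 30, Npc2 and Laptm5 (background 0.834%). The Npc1 locus, like that of Ppt1, passed the filter on mean peaks only through its FGR libraries.

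On the side of fewer peaks per 10000, the Tpp1 locus, of tripeptidyl peptidase 1, held 4, 5, 3 and 3 peaks in FGR and 5, 2, 6 and 7 in Ctrl. Ctrl replicate 2 had the fewest, and the log2 difference was −0.87 ± 0.24 (limma, adjusted p = 0.130). With a pseudocount of 1 this locus passed the threshold (limma, log2 difference −0.86, adjusted p = 0.0447). Grn encodes progranulin, a precursor that reaches the lysosome together with prosaposin, and its locus held 4, 3, 4 and 3 peaks in FGR and 3, 3, 5 and 5 in Ctrl. The plain counts overlapped, while per 10000 peaks every FGR library was below every Ctrl library, as at 1 of 30 members (background 7.5%). The log2 difference was −0.73 ± 0.24 (limma, adjusted p = 0.159). The Hexa locus, of the alpha subunit of beta-hexosaminidase, held 4, 4, 5 and 5 peaks in FGR and 5, 3, 7 and 4 in Ctrl, a log2 difference of −0.61 ± 0.23 (limma, adjusted p = 0.207). Without Ctrl replicates 1 and 2 the differences were −0.92 at Tpp1, −0.65 at Grn and −0.40 at Hexa, and the smallest adjusted p of any member was 0.451 (limma). In lists of equal length the Tpp1 and Hexa differences were both −0.12. At the gene ends of these loci, Grn had percentiles of 74.9 to 90.1 in FGR and 60.0 to 86.4 in Ctrl, and Hexa 47.4 to 78.6 in FGR and 4.52 to 61.1 in Ctrl. The strongest gene-end peak of Tpp1 lay beyond its far end, chr7:105743974-105744695, in all libraries but Ctrl replicate 4, with 59.7 to 79.5 in FGR and 13.7 to 81.4 in Ctrl. The Tpp1 start region, chr7:105751876-105752502, had 7.41 to 62.0 in FGR and 3.98 to 66.3 in the 3 Ctrl libraries with a peak. Laptm5 had a region at its start, chr4:130913149-130913476, called in 4 FGR libraries at 43.6 to 72.6 and in 2 Ctrl libraries at 54.6 and 77.3. A further Laptm5 region, chr4:130913810-130914435, centred 806 bp downstream of the start, was called in all 8 libraries at 90.4, 95.8, 85.4 and 95.7 in FGR and 59.8, 48.7, 88.5 and 65.0 in Ctrl. Ctrl replicate 3 lay within the FGR range, and the region's rank difference was 34.6 ± 12.6 (limma, adjusted p = 0.196). The Tpp1 peak is shared with Taf10 and the Hexa peak with Tmem202.

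**Figure D4:**
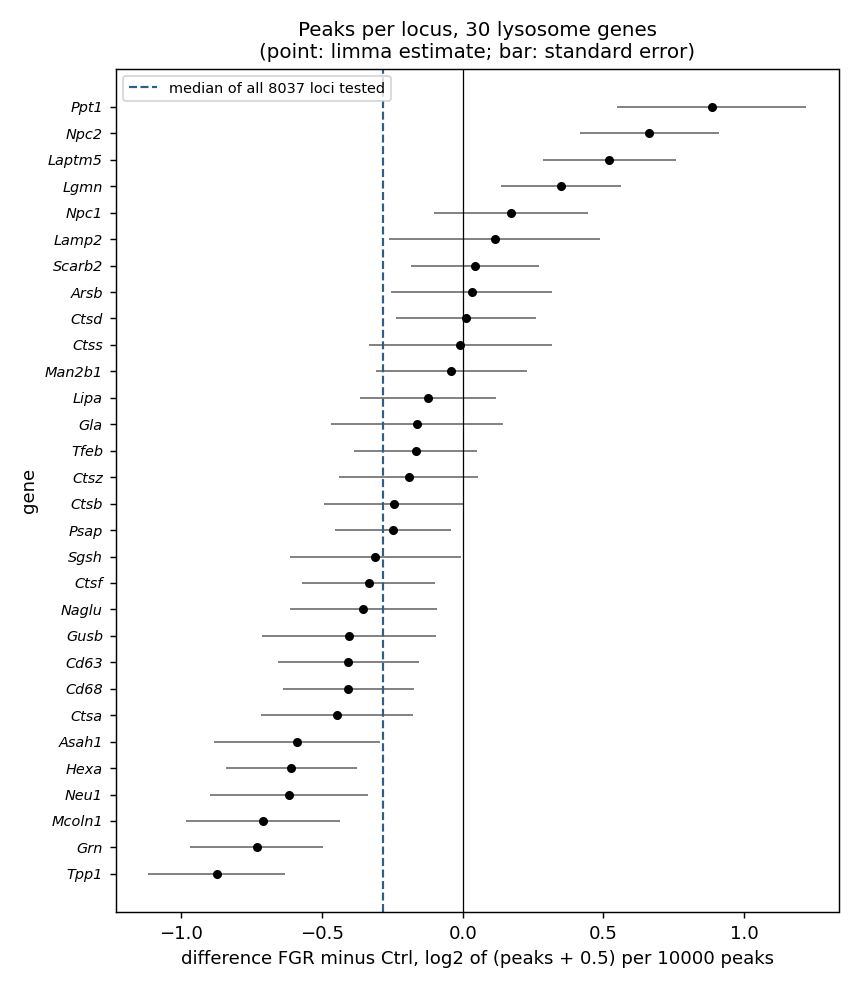
Difference FGR minus Ctrl in log2 of (peaks + 0.5) per 10000 peaks (x axis) for the 30 lysosome gene loci tested (rows), with points at the limma estimate, bars of 1 SE, a solid line at 0 and a dashed line at the median of all 8037 loci, −0.28. Ppt1, Npc2 and Laptm5 lie at the top between 0.52 and 0.88, and Grn and Tpp1 lie at the bottom. Ppt1 passed the filter on mean peaks only through its FGR libraries.

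Peaks of all libraries were merged into 52251 regions, of which 215 lay in member loci. In member loci 61 regions were called in all 8 libraries (28.4%), beside 16.9% of all regions. There were 19 regions called in 3 or 4 more FGR than Ctrl libraries (background 4.33%) and 0 the other way (background 0.216%). Of these, 4 were present in every FGR library and absent from every Ctrl list (background 0.869%), and 0 regions showed the opposite (background 0.0268%). The first lay inside Npc1, chr18:12229948-12230420, at within-list percentiles of 78.9, 34.6, 74.8 and 43.9 in FGR libraries 1 to 4. The second lay 1978 bp beyond the far end of Npc2, chr12:84752077-84752581, at 55.9, 7.24, 42.6 and 20.1. The Laptm5 region, chr4:130899825-130900225, centred at −13292 bp from the start, had percentiles of 16.8, 13.4, 46.3 and 29.3. The Psap region, chr10:60314085-60314680, lay 11485 bp beyond the gene and inside its neighbour Cdh23, at 16.1, 26.1, 43.1 and 38.4.

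Most of these percentiles were below the middle of the FGR lists. In lists of equal length 0 regions in member loci had this pattern, against 128 of all regions. At a −log10 q of at least 5 there were 2 in member loci and 342 of all 52251 regions, and without Ctrl replicates 1 and 2 there were 5 and 531 (1.02% of all). The Npc1 region was still called in 2 FGR and 0 Ctrl libraries at equal length and in 4 and 0 at a −log10 q of at least 5. A second region beyond Npc2, chr12:84748114-84748510, was called in 4 FGR libraries and in Ctrl replicate 3.

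**Figure D5:**
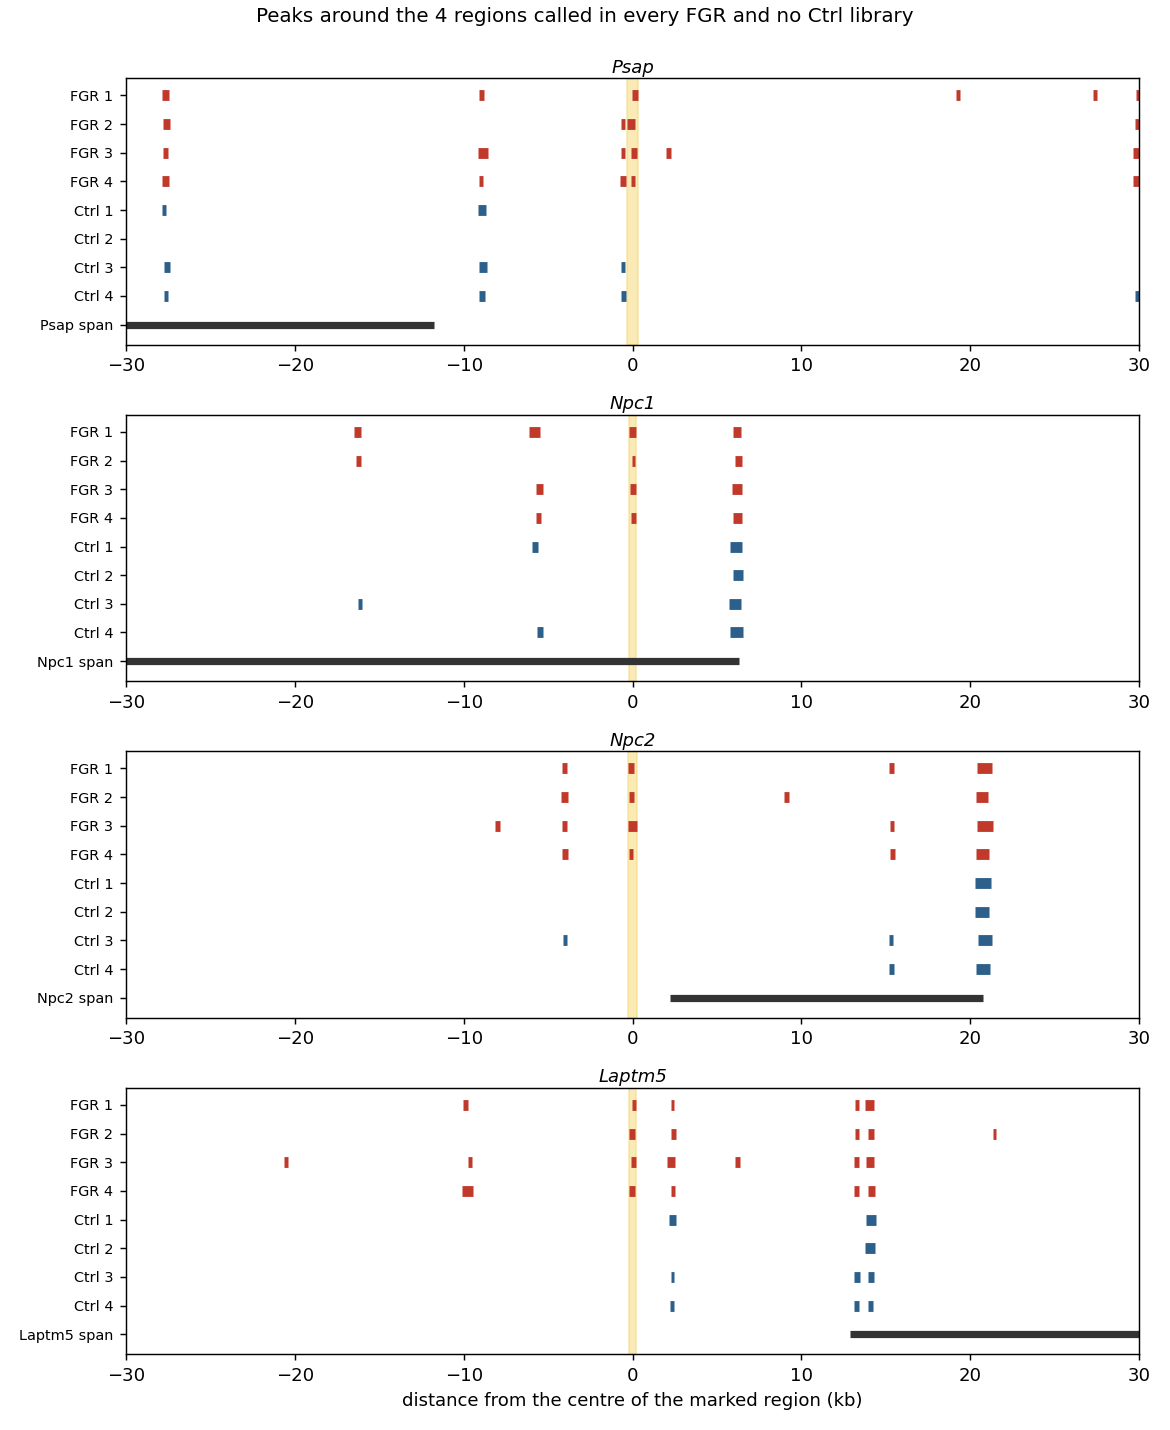
Called peaks within 30 kb of the centre of each of the 4 regions found in every FGR and no Ctrl library (x axis, distance in kb; marked band, the region), with 1 line per library, FGR above Ctrl, and the gene's annotated span as a dark bar. The gene-end peaks of Npc1 and Npc2 and a peak near the start of Laptm5 are present in all 8 libraries, while the banded regions hold red (FGR) marks and no blue (Ctrl) marks.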

How the data were processed

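Chromatin accessibility was measured by ATAC-seq in 8 libraries, 4 FGR and 4 Ctrl, each deposited with its own peak list. The deposited score, ratio (fold over local background), −log10 p and −log10 q are the authors' values per peak; −log10 q ranked peaks within a list, fold was an alternative, and the score was not used. Tools named in the submitters' processing notes, with no role or settings, are MACS2 2.2.7.1 and DiffBind 3.12.0. The same notes give Bowtie2 2.4.5 with SAMtools 1.3.1, and also Trim Galore 0.6.5 and the build mm10. Read shifting, duplicate handling and blacklists are not given here by any source.

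Gene positions came from RefSeq, GRCm38.p6, for 21887 protein-coding genes, and an overlap of 1 bp counted. Starts and strands came from the RefSeq promoter table, which matched 35 of 39 members. Ranks and log2 peak counts per locus (pseudocount 0.5, mean of at least 2 peaks) were fitted with limma 3.58.1 (trend, R 4.3.3) over all 8 libraries and adjusted after Benjamini and Hochberg (threshold 0.05), after tests on simulated data. Regions are merged overlapping peaks. A background percentage is the share of all features tested that meet the same rule.

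The members and lists were chosen with earlier results of these data known. Values in every library are given for members with a gene-end peak in at least 2 more libraries of one group, up to 3 members per direction with the smallest limma p for locus and rank, the 5 highest and 5 lowest by percentile, and those with a region called in all of one group and none of the other; other genes named share a peak or were chosen after their values were seen. Alternatives were shorter, stricter and equal-length lists, other windows, and libraries left out. Counting and drawing were done with pandas 2.3.3, matplotlib 3.10.9 and numpy 2.4.6 under Python 3.11.15. Replicate numbers do not pair libraries: deviations of same-numbered FGR and Ctrl libraries correlated at −0.029 to 0.098.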

Additional observations from a re-analysis of the deposited data

Results flagged for a closer look

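In 42 sets of 4 libraries, 1 library stood far from the other 3 in 4 cases by Dixon's criterion, where chance gives about 1 in 20. The within-list percentile of the Lamp1 gene-end peak was 79.2 in FGR replicate 3, against 52.8 to 55.1 in the other FGR libraries. For Lipa it was 92.7 in FGR replicate 2, against 98.2 to 99.1. For Cd68 it was 41.8 in Ctrl replicate 2, against 78.7 to 79.1, and for Npc1 it was 69.1 in the same library, against 92.8 to 97.2. Ctrl replicate 2 has the shortest list, and its part in these values was not tested.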

How the results depend on the processing

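The count of 27 members with a gene-end peak in all 8 libraries ranged from 18 to 32 over the alternatives. The share of members with such a peak, 4.49 percentage points higher in FGR, was −10.3 in lists of equal length, and the other 15 settings differed from it by less than the spread between libraries. Peaks in member loci per 10000, −5.38 as reported, were 1.38 in lists of equal length, −10.9 with a 50 kb flank and 35.3 (peaks per library) without division. Peaks away from gene ends per 10000, 2.66 higher in FGR, were 24.8 higher as plain counts. The regions of every FGR and no Ctrl list, 4 as reported, numbered 0 at equal length and 2 at a −log10 q of at least 5.

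For peaks per locus, 1 locus was called higher and 0 lower in FGR as reported; there were 13 and 7 in lists of equal length, 7 and 50 with a pseudocount of 1, 26 and 35 without the filter on low loci, and 2 lower with a 5 kb flank. None was called higher with pairs averaged, without Ctrl replicates 1 and 2, or in replicates 3 and 4 only (0 each). Leaving out single libraries gave 0 to 8 higher and 0 to 7 lower: 8 and 7 without Ctrl replicate 3, 2 and 2 without Ctrl replicate 4, 1 lower without FGR replicate 1, and 0 higher without FGR replicate 2, 3 or 4 or Ctrl replicate 1. Replicate numbers do not pair the libraries; with the replicate block 54 loci were called higher and 87 lower. Of the members, 1 was called lower with the pseudocount of 1 and 1 with the block, in both cases Tpp1 (limma, adjusted p = 0.0447 and 0.0254). Over the other settings the smallest adjusted p of a member was 0.0506 (limma), in lists of equal length. It belonged to a different member, with more peaks in FGR. Tpp1 had an adjusted p of 0.750 in those lists (limma). Gene-end ranks gave 0 calls under every alternative run, the block included. Region ranks gave 0 calls, except 3 higher and 1 lower without Ctrl replicate 4 (0 to 3 and 0 to 1 over single libraries left out), none in member loci.

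A peak missed in a short list is not shown to be a closed site. Read depth is unknown. The causes of the changes with settings were not tested.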
